A study of Drosophila melanogaster with 2 samples.

Results

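The dosage compensation genes of Drosophila melanogaster were examined for binding of CG15336. They were taken by name as msl-1, msl-2, msl-3, mle, mof, lncRNA:roX1 and lncRNA:roX2, which are 5 protein-coding and 2 noncoding RNA genes. All 7 names were found among the 18277 genes of the annotation on the chromosome arms, where transposable elements were left out. The study mapped the genomic sites of this eGFP-tagged protein by ChIP-seq against GFP, using whole CG15336-eGFP prepupae aged 2 days, in 1 group of 2 biological replicates. There was no second genotype, stage or treatment, control libraries were not analysed here, and the sex of the animals is recorded as not collected. A whole prepupa holds many tissues, so a site bound in a small share of cells and a site bound weakly in many cells cannot be told apart. Each gene was given a window that ran from 2000 bp upstream of its 5′-most transcript start to its end, and every peak that overlapped the window by at least 1 bp was taken.

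The male-specific lethal (MSL) complex raises transcription of the single male X chromosome in flies. MSL1 is the scaffold of the complex, MSL2 is the RING finger subunit whose synthesis is limited to males, MSL3 is a chromodomain protein, MLE is an RNA helicase that remodels the roX RNAs, and MOF is the acetyltransferase for lysine 16 of histone H4. The noncoding RNAs roX1 and roX2 are transcribed from the X chromosome, are part of the complex, and their genes hold GA-rich sites at which the complex enters the chromosome. In females, Sxl, the master regulator of sex determination, blocks translation of the msl-2 messenger RNA.

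The set had 1 peak in the conservative list made by the authors from both replicates, and it lay across the 3′ end of lncRNA:roX2. The gene stands on X at 11579065 to 11580432 of dm6, on the plus strand. The peak covered chrX:11580253-11580636, and 180 of its 384 bp (46.9%) were inside the gene. Its summit at 11580445 was in intergenic sequence, 13 bp past the annotated gene end and 327 bp upstream of the start of nod, which encodes a kinesin-like protein of chromosome segregation. The sequence below runs from the first base of the peak to 50 bp past the summit (chrX:11580253-11580495, plus strand, RefSeq Release 6 genome). It is shown because it is the only conservative peak sequence of the set, and its capitals mark the 8 bp GA repeat that lies within it.

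roX2 3′ end: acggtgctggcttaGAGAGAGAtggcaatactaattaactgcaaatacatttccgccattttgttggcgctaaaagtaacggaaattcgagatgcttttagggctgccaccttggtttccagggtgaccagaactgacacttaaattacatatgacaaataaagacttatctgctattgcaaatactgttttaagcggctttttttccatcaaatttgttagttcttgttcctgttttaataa

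The GA repeat covered 11580267 to 11580274, inside the gene, 1202 bp from its start and 171 bp from the summit. Neither GAGAG nor GAGAGAGA was found within 50 or 100 bp of the summit on either strand. Across all 9295 conservative peaks, GAGAG lay within 50 bp of the summit in 12.5% and GAGAGAGA in 1.56%. Within the whole peak the shares were 40% and 5.85%, with each GAGAGAGA also counted as GAGAG. The other motifs searched on both strands, CACACACA, AAAAAAAA, TATCGATA and CGATA, were not found anywhere in the roX2 peak. Across whole conservative peaks they were present in 10.5%, 27.8%, 1.94% and 31.8%, in that order. TATCGATA holds CGATA, so these last motifs overlap. The 101 bp centred on the summit had a GC content of 26.7%.

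The roX2 peak had a signal of 84.7 on the authors' scale, which is not stated, against a median of 123.1 in the conservative list. It ranked 6975 of 9295. The authors' reproducibility measure is the irreproducible discovery rate (IDR), and their thresholded lists begin at a -log10 IDR of 2, an IDR of 0.01. The roX2 peak reached 2.37 from both replicates together. In the unthresholded list of replicate 1 the site had a signal of 44.4 and a -log10 IDR of 1.23, and in that of replicate 2 it had 36.8 and 0.34. The site was therefore present in the unthresholded lists of both replicates and past the threshold in neither alone. In all, 1406 conservative peaks (15.1%) had no thresholded peak of either replicate over them.

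The other 6 genes had no conservative peak. In all, 1 of 7 genes (14.3%, Wilson 95% interval 2.57 to 51.3) had one, beside 5765 of all 18277 genes (31.5%). The share was 34.3% of protein-coding genes and 23.6% of noncoding RNA genes. The members' interval covers counting over 7 genes and includes each of these shares. When a peak was counted by its summit, the members had 0 of 7 (upper Wilson bound 35.4%) and all genes had 30.2%. No summit lay within 500 bp of any start of the 7 genes in the conservative list, beside 18.7% of all genes. The windows of the members added up to 41.1 kb with 0 conservative summits, and the merged windows of all genes held 7.97 summits per 100 kb. The share of genes with a peak went with window length. It was 26.6% for windows over 3000 and up to 5000 bp, where lncRNA:roX2 and msl-3 fall, and 41.9% for windows over 5000 and up to 10000 bp, where the other 5 genes fall.

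**Figure D1:**
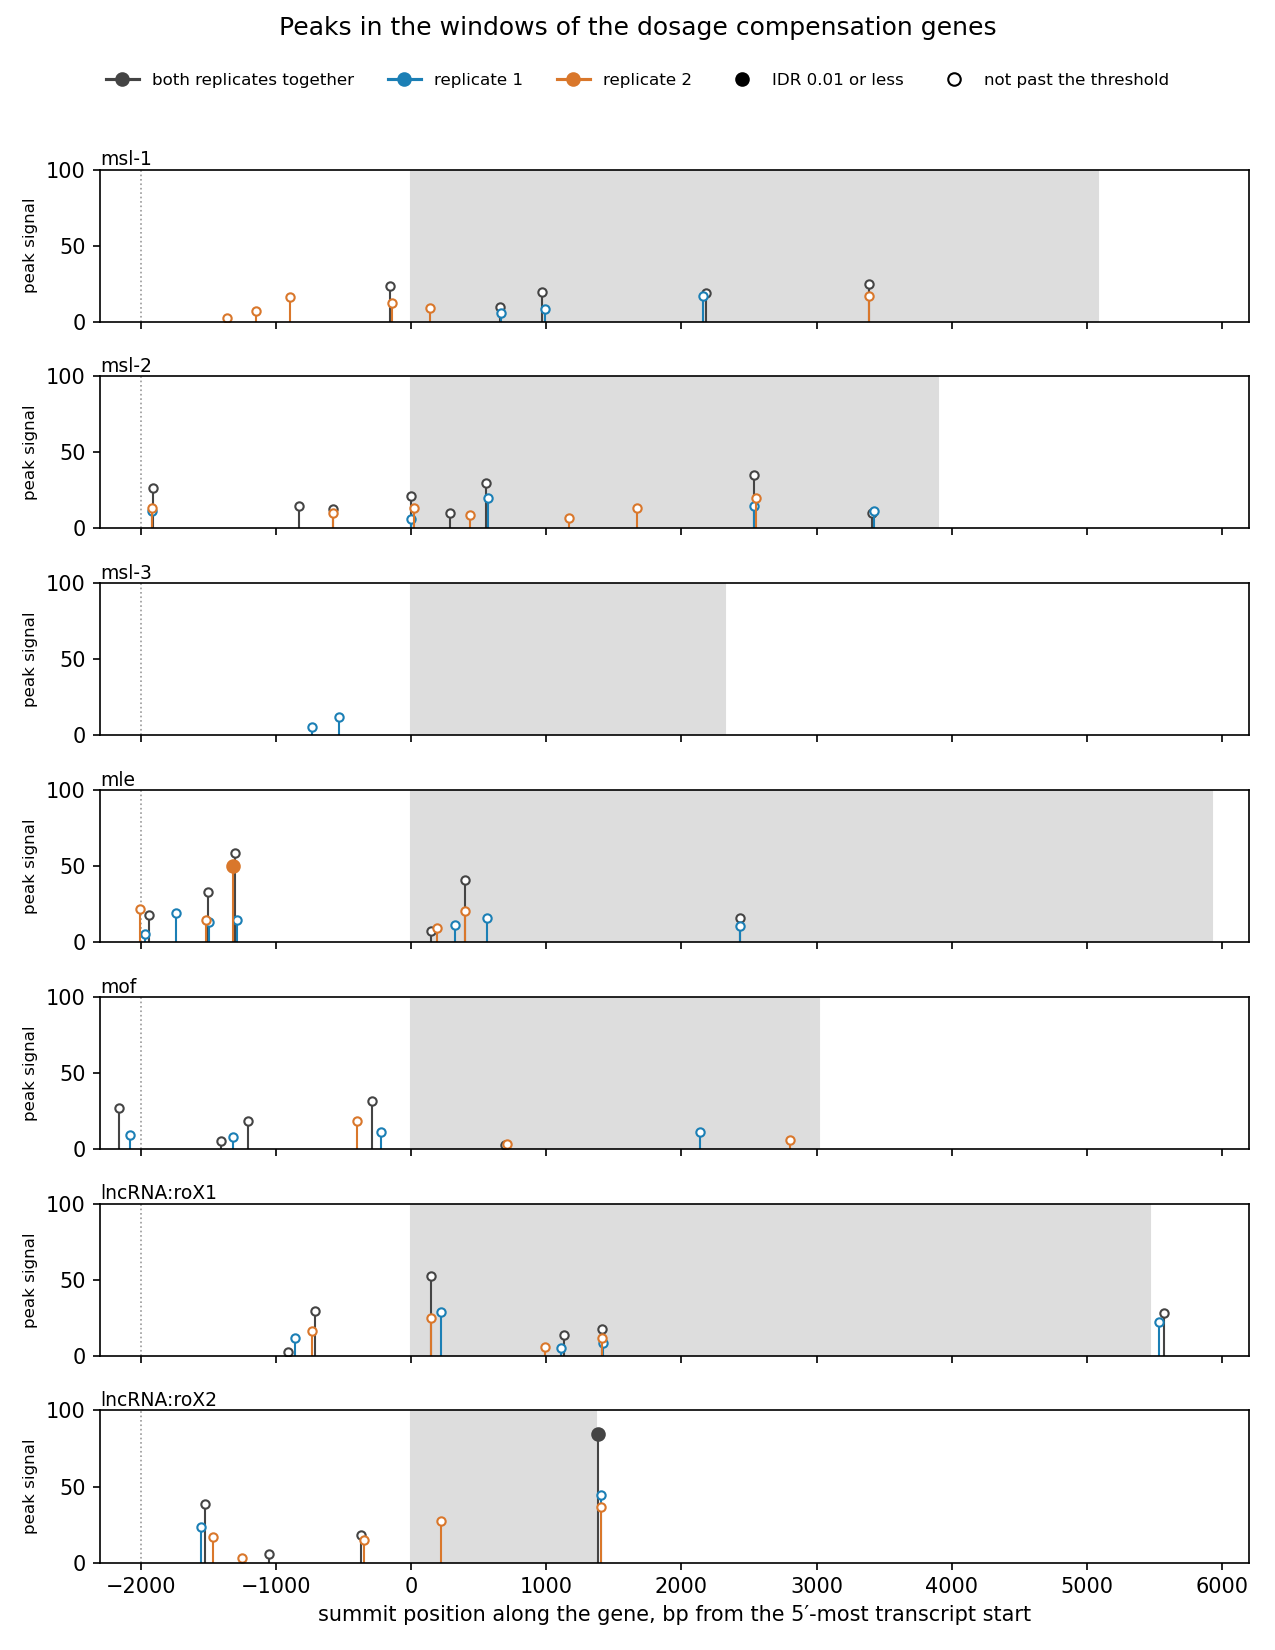
Peaks of the unthresholded lists in the window of each gene. The horizontal axis is the summit's distance in bp from the 5′-most start along the gene, with the gene body in grey and the 2000 bp limit dotted; the vertical axis is the authors' peak signal, whose scale belongs to each list. Filled points are past the IDR threshold of 0.01, and they are the roX2 3′ peak from both replicates together and the mle upstream peak of replicate 2.

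Each replicate was then taken alone. Replicate 1 had no thresholded peak in any of the 7 windows, beside 24.8% of all genes. Replicate 2 had 1, upstream of mle, beside 29.6% of all genes. The other thresholded list of both replicates is longer, with 10787 peaks, and lacks 877 of the conservative peaks. It held the mle and roX2 peaks, so 2 of 7 genes had a peak there, beside 34.8% of all genes.

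The mle gene lies on the minus strand of 2R at 5974857 to 5980778 and has 2 transcript starts. Its peak in replicate 2 covered chr2R:5981915-5982274, with the summit 1317 bp upstream of the nearest mle start. That summit was also 251 bp inside Src42A, a Src family tyrosine kinase gene that starts at 5981844 and is transcribed away from mle, and fell in its 5′ untranslated part. Its signal was 50.01, rank 6590 of 8219, with a -log10 IDR of 2.23. In each unthresholded list a pair of peaks overlapped each other there. The pair in replicate 1 had signals of 14.7 and 13.1 and a -log10 IDR of 0.95 each, and the second peak in replicate 2 had a signal of 14.6 and a -log10 IDR of 0.33. With both replicates together the pair had signals of 58.7 and 33.1, the first with a -log10 IDR of 0.44 in the unthresholded list behind the conservative peaks and 2.11 in the one behind the longer thresholded list. The roX2 peak had 2.37 and 2.70 in those lists. Inside mle, the highest peak of the first of those lists had a signal of 40.6 and a -log10 IDR of 0.50.

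The unthresholded lists hold many low peaks, and 69% of all genes had at least 1 in their window in the unthresholded list behind the conservative peaks, which is the list meant below by both replicates together. In that list the 7 windows held 34 peaks, of which 33 were under the threshold and 1 was past it. Of all peaks in the list, 13.8% were past the threshold. The median signal of the peaks in the 7 windows was 19.0, and the median of all 68761 peaks was 20.9. These low peaks are given below to show what was measured at each gene and are not counted as binding.

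At lncRNA:roX1 (X, 3857230 to 3862697, minus strand, 3 transcript starts) the highest such peak lay in the first exon of the noncoding RNA, at chrX:3862355-3862738. Its summit was 150 bp downstream of the 5′-most start and 122 bp upstream of the next start. With both replicates together its signal was 52.1 and its -log10 IDR was 1.62, which is the highest under the threshold among the 7 genes in that list. The replicates had signals of 28.5 and 24.8 at the site, with -log10 IDR of 0.40 and 0.95, and 40% of all genes had a higher peak in their window. The 101 bp at this summit (chrX:3862497-3862597) and at the summit between the starts of the neighbours upstream of roX2 (chrX:11576686-11576786) are shown for comparison with the roX2 3′ end, both from the plus strand. Neither holds any of the 6 motifs, so no letters are in capitals.

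roX1 first exon: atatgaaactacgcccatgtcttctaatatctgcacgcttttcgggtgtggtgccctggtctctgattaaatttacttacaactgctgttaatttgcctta

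roX2 upstream: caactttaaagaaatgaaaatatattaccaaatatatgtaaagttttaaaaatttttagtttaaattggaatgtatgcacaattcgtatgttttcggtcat

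GC content was 40.6% at the roX1 summit and 21.8% at the summit upstream of roX2. Within its window roX1 had 11 GAGAG matches, or 1.47 per kb, and roX2 had 7, or 2.08 per kb, against a median of 1.29 per kb over all genes. Overlapping matches were each counted, so the 8 bp repeat under the roX2 peak gave 2 of them. The 8 bp repeat was found at 2 places in roX2, of which 1 lay under the conservative peak, and at none in roX1. It was present in the windows of msl-1 and mle, once in each, and in 21.3% of all gene windows. These counts cover exact repeats only and do not describe the degenerate recognition element of the complex.

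Close to the start of roX2, replicate 2 had an unthresholded peak with its summit 221 bp inside the gene, a signal of 27.1 and a -log10 IDR of 1.45. Replicate 1 had no unthresholded peak there, and the unthresholded list behind the longer thresholded one had a peak 159 bp inside the gene with a signal of 33.2 and a -log10 IDR of 1.01. The plot of reproducibility by gene shows that value as the highest of replicate 2 in the roX2 window, so its roX2 points do not all belong to 1 site.

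**Figure D2:**
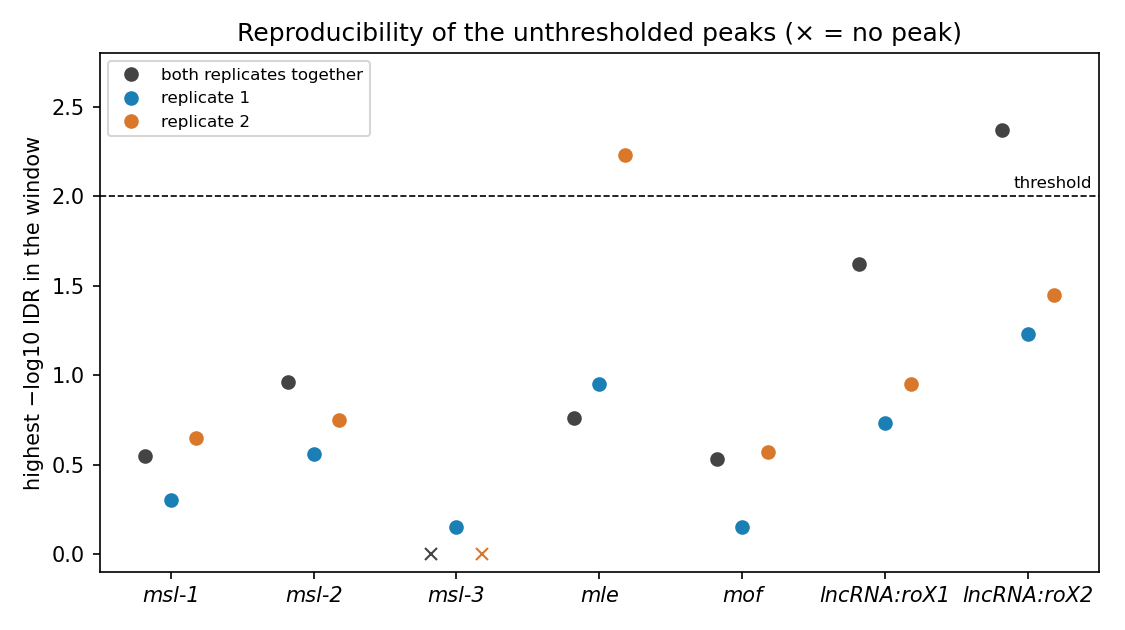
Highest -log10 IDR of any unthresholded peak in the window of each gene, for both replicates together and for each replicate; a cross marks a window with no peak and the dashed line is the threshold of 2. Only roX2 in the list of both replicates (2.37) and mle in replicate 2 (2.23) are above the line.

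With both replicates together, the genes of the protein subunits had lower peaks than the roX1 first exon, apart from the mle upstream site. In that list 49.4% of all genes had a higher peak in their window than msl-2, 52.3% than mof and 58.4% than msl-1. For mle, by its upstream site, the share was 37.1%. At msl-2, on 2L at 3462218 to 3466112, the highest peak of both replicates together lay in coding sequence 2537 bp downstream of the start, with a signal of 35.2 and a -log10 IDR of 0.96. Its summit was also 175 bp upstream of mir-4971, the closest of the starts of other genes within 500 bp. The replicates gave 14.8 and 19.9 there. At msl-1, on 2L at 18683720 to 18688800, the highest peak of both replicates together had a signal of 24.9 in coding sequence. The highest -log10 IDR in the msl-1 window was 0.55 in that list, 0.30 in replicate 1 and 0.65 in replicate 2. At mof, on X at 5873840 to 5876853, the highest peak had a signal of 31.5 and stood 290 bp upstream of the start, in the 3′ untranslated region of Usp30, with a -log10 IDR of 0.53. At msl-3, on 3L at 7123213 to 7125533, there was no peak of any rank in the list of both replicates together or in replicate 2. Replicate 1 had 2 in the msl-3 window, with signals of 11.8 and 5.32, and the unthresholded list behind the longer thresholded one had 2 with signals of 19.8 and 14.3.

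The nearest conservative peaks outside the windows mostly had a higher signal than the 84.7 of the roX2 peak and mostly lay by starts of other genes. The exceptions were the peak nearest to msl-2, with a signal of 76.1, and the peak nearest to msl-1, 1396 bp from the closest start. The nearest to a window was the peak at chrX:11576544-11576927, which missed the upstream limit of roX2 by 138 bp, whereas the roX2 3′ peak was inside by 180 bp. Its summit lay between the opposite starts of e(y)2, a subunit of the SAGA and TREX-2 complexes, and CG11695, 116 and 147 bp upstream of them and 2329 bp upstream of the roX2 start. It had a signal of 120.5 and was past the threshold in both replicates, with 67.3 in replicate 1 and 52.4 in replicate 2. Upstream of mof, the nearest conservative peak stood 3821 bp from the start, in an intron of CG16721 and 140 bp from a start of that gene. Its signal was 266.7, rank 1613, with 115.5 and 144.1 in the replicates. Upstream of roX1, the nearest one lay 5959 bp away, upstream of starts of both CG2930 and yin by 317 and 325 bp. Its signal of 479.0 ranked 601, and it ranked 607 of 6678 in replicate 1 and 585 of 8219 in replicate 2. This was the highest of the 7 nearest peaks outside the windows.

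For the autosomal genes the nearest conservative peak was 5230 bp upstream of the msl-1 start, in an intron of CG10383 (signal 122), and 10038 bp upstream of msl-2, by lncRNA:CR43928 (76.1). It was 8636 bp upstream of msl-3, by melt (316.5), and 12168 bp upstream of mle, inside Src42A (92.3). The melt peak was thresholded in both replicates, with 158.8 and 166.1. The msl-1 neighbour was thresholded in replicate 2 only, and the peaks nearest to msl-2 and mle in neither. In each of the 7 cases the nearest conservative peak outside the window was on the upstream side. The same count was not made over all genes, so whether this is particular to these 7 cannot be said.

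The genes most like lncRNA:roX2 in rank over the conservative list and both replicates, with no peak taken as 0, were nod, Larp7 and mxc. For nod this is the same peak, and Larp7 and mxc share 1 peak with a signal of 84.4, rank 6988. The largest difference in rank percentile from roX2 was 0 points for nod and 0.14 for the others. Neither roX2 nor these genes had a thresholded window peak in either replicate, so each replicate gave 0 for all of them. The likeness therefore rests on rank in the conservative list alone.

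Genes that act around the complex were counted in the same way. Of 21 genes of sex determination and msl-2 regulation, 14 had a peak in the window (66.7%, Wilson 95% interval 45.4 to 82.8), and 12 did in each replicate. The shares of all genes were 31.5% in the conservative list, 24.8% in replicate 1 and 29.6% in replicate 2. The windows of Sxl, dsx, fru, Unr, how, Hrb27C and gro are over 10000 bp long, a class in which 64.2% of all genes had a conservative peak, and the fru window of 133314 bp alone held 13 conservative peaks. The highest signals were at gro, a corepressor gene (663.6), the sex determination gene fru (436.7), Hrb27C (400.5) and Unr (372.0), the last encoding a partner of SXL in repression of msl-2 translation. At gro the summit was 157 bp upstream of a start, and at Unr it was 381 bp inside the gene, in 5′ untranslated sequence. Sxl had 4 conservative peaks, the highest with a signal of 267.7 in an intron 1363 bp downstream of the nearest start. No conservative peak lay in the windows of tra, her, snf, sisA, sc, upd1 or run, of which sisA, sc, upd1 and run are X-linked signal elements of sex determination.

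The NSL complex contains MOF as well, and 2 of its 6 other subunit genes on the list had a peak (33.3%, interval 9.68 to 70.0). These were Rcd5, with a signal of 113, and nsl1, with 87.4. The nsl1 window is over 10000 bp long, the class at 64.2%, and held no thresholded peak of replicate 1. The Rcd5 summit was 66 bp upstream of its start and 19 bp inside CG11593. Of 11 matched genes for chromatin partners of the MSL complex, 7 had a peak (63.6%, interval 35.4 to 84.8), beside 31.5% of all genes. The windows of JIL-1 and Nup153 are over 10000 bp long, the class at 64.2%. A conservative promoter summit was found at 2 of the 11 partner genes, beside 18.7% of all genes. In the sex determination and NSL lists it was found at 9 of 21 and 1 of 6. The highest peaks of the partner genes were at Chro (1471), the H3S10 kinase gene JIL-1 (1290), the gene of the heterochromatin protein HP1a (965.7), and Nup153 (349.4). The JIL-1 peak, at chr3L:11084601-11084959, lay in an intron 7074 bp downstream of the nearest start and ranked 47 of 9295, with ranks of 52 and 47 in the replicates. The HP1a peak was 1898 bp upstream of that gene and 61 bp inside CG8360. Clamp, whose zinc finger product binds GA repeats and recruits the complex, had no thresholded peak in its window in any of the 4 lists. Gene length differs between the lists and the differences in share were not tested.

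**Figure D3:**
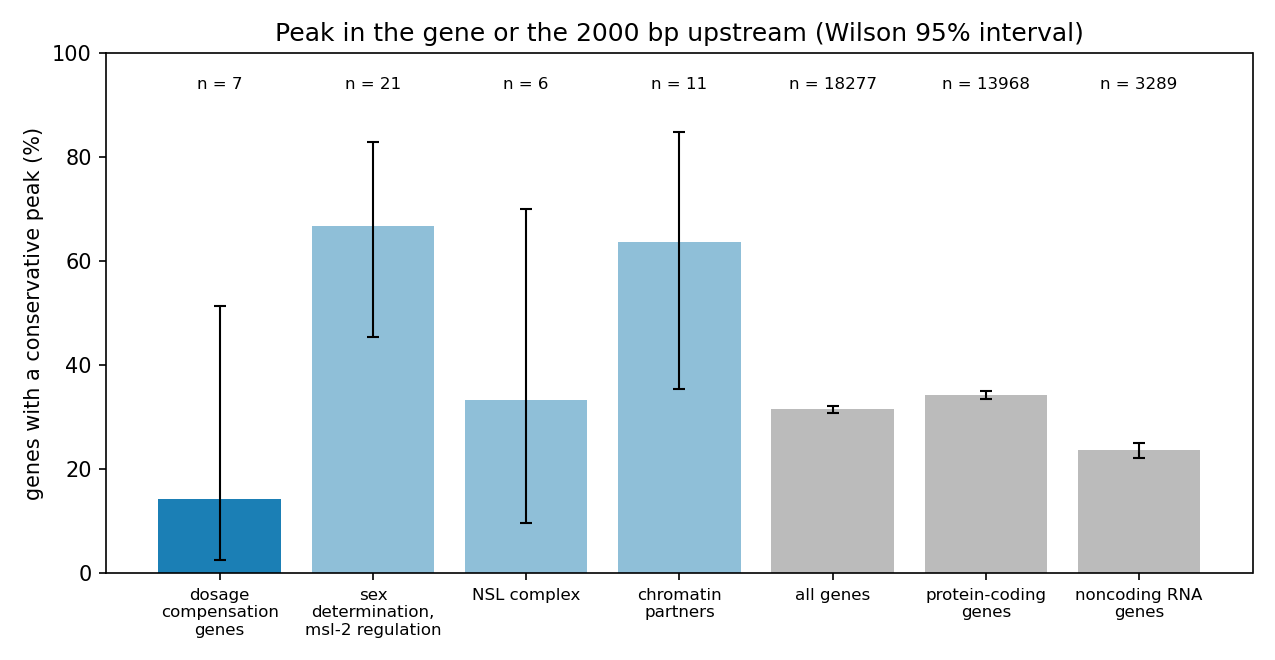
Percent of genes with a conservative peak in the window, for the dosage compensation genes, 3 lists of related genes and all genes by type; bars start at 0, error bars are Wilson 95% intervals over genes and n is the number of genes. The dosage compensation genes are at 14.3% (1 of 7) with an interval up to 51.3%, and all genes are at 31.5%.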

How the data were processed

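The authors deposited dm6 peak lists of each replicate and of the pair, with and without an IDR threshold, per the file listings and the labels. Alignment software, the program that made the peaks and the handling of controls were not given in the sources used here. The deposited signal of a peak is the authors' own value on an unstated scale and was used only to describe and rank peaks within a list. The authors' score column tracks IDR, as judged by its values, and does not go below 830 in the thresholded lists, and the -log10 IDR came from the deposited ranked lists. Read depth is unknown because the lists hold no counts, so intervals cover counting over genes only.

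Coordinates are 1-based. Peaks were joined to the Ensembl release 115 annotation and the RefSeq Release 6 genome, whose arms contain every peak on them. A summit was annotated by the first of 5′ untranslated, 3′ untranslated, coding, noncoding exon, intron and intergenic. Related genes were matched by symbol, and 1 name (Mtor) was not matched. Named genes are the members, up to 4 genes of each related list with the highest signal, the 3 genes closest in rank, and genes with a start within 500 bp of a summit; other genes of the lists named in the text were chosen after their values were seen. Members and lists were chosen with earlier results of these data known. With 1 group of 2 replicates no test was made. Counts of GA repeats in gene windows, merged-window density and shares by window length were added after the data were seen. Python 3.11.15, scipy 1.17.1 and matplotlib 3.10.9 were used, and the overlap code was tested on simulated data.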

Additional observations from a re-analysis of the deposited data

How the results depend on the processing

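The member count rests on 1 low-ranked peak and changed with most alternatives. Against 1 gene and 1 peak as reported, the other thresholded list of both replicates gave 2 genes (mle and roX2) and 2 peaks, and 5000 bp upstream gave 2 genes (mof and roX2) and 3 peaks. A global IDR of 0.001 or less, summits inside the window, or at least 50% of the peak inside the window gave 0 genes and 0 peaks. Leaving out 1 replicate gave 0 to 1 genes and 0 to 1 peaks, and the 1 gene was mle. Under these overlap, window and threshold settings all genes were at 21.2% to 41.3%. The count of members with a promoter summit stayed at 0 under all 6 alternatives. An IDR of 0.001 or less and a narrower promoter reach only remove summits, so a count of 0 could not change under them. The other alternatives could have raised it. The share of all genes with a promoter summit was not recomputed under any alternative, so these counts have no background beside them. The roX2 rank percentile was 25.0 and became 33.6 in the longer list. Over the whole peak GAGAG and GAGAGAGA were each in 1 member peak instead of 0, and in the longer list CACACACA was in 1, at mle, beside 2.38% of all peaks of that list. The NSL count of 2 fell to 1 at an IDR of 0.001 or less and rose to 5 with 5000 bp upstream, and was 1 to 2 with a replicate left out. The counts of the other 2 related lists stayed within 1.5 times. The loss of the roX2 peak by summit and by overlap follows from its position, with 46.9% of it inside the window. No paired analysis was possible because there is 1 group.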
